A study of Mus musculus with 21 samples.

Results

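The regions described here were Fbxl19 peaks that stood alone: peaks of embryonic stem (ES) cells with high Fbxl19 that met no peak of a low-Fbxl19 clone, no Rnf20 peak and no domain of monoubiquitinated histone H2B (H2Bub1) in any of 5 conditions. They were chosen by overlap (at least 1 bp) among the called regions of these lists, and they numbered 4475 of 13669 peaks (32.7%, 95% interval 32.0 to 33.5). This count is therefore a description. Chromatin immunoprecipitation and sequencing of mouse J1 ES cells, 21 samples in all, gave 8 lists that were used, and 4 of the samples were inputs. The Fbxl19 list came from 2 streptavidin pulldowns of a clone with flag-biotin tagged Fbxl19 at more than 5 times the endogenous level (OE-high). The lists it was set against came from 2 pulldowns of a clone with tagged Fbxl19 below the endogenous level (OE-low, J1 cells containing BirA), from 1 Rnf20 pulldown (J1 cells containing BirA) and from H2Bub1 immunoprecipitations. The H2Bub1 samples were 2 of Fbxl19 knockdown ES cells, 3 of the OE-high clone, 2 of cells at day 4 of differentiation, 2 of Fbxl19 knockdown cells at day 4 of differentiation, and 3 of ES cells with no change to Fbxl19. BirA is a biotin ligase, and no list from cells with BirA alone was used here. Each Fbxl19 level rests on clones selected for it, and the Fbxl19 level in the knockdown cells was not analysed here.

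Fbxl19 belongs to the F-box family and carries a CXXC zinc finger, which recognises unmethylated CpG, and CpG islands are the stretches of the genome where such DNA is most concentrated. Rnf20 is an E3 ubiquitin ligase that, with its partner Rnf40, places a single ubiquitin on histone H2B, and H2Bub1 typically marks transcribed gene bodies. By its title, the series concerns recruitment of Rnf20 to CpG islands by Fbxl19 and the H2Bub1 that follows. The peaks described here are those where neither Rnf20 nor H2Bub1 was listed. Absence from a list says only that no peak or domain was called there, since all lists but that of Rnf20 combine replicates and no read counts were used. No spread between replicates was at hand, peaks are not replicates, and no test was made. Intervals are exact at 95% (Clopper-Pearson for shares, order statistics for medians) and cover counting error only. Positions are on mm9, counted from 1, and no mm9 sequence or gene annotation was used, so genes and CpG islands at these peaks are not named.

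Most exclusions rested on H2Bub1. Of all OE-high peaks, 7368 (53.9%) met a domain of the OE-high H2Bub1 list, and 1383 of them met nothing else. The differentiated list met 5112 peaks, the knockdown list 1976, the differentiated knockdown list 985 and the ES list 2891, with 130, 61, 4 and 68 peaks met by that list only. Rnf20 met 3066 peaks, 620 of them as the only list, and OE-low Fbxl19 met 1761, of which 535 met nothing else. Peaks that met 2 or more lists numbered 6393, so repeated overlap was more frequent than overlap with a single list. Outside all domains lay 5790 OE-high peaks, and the 4475 alone were 77.3% of these (interval 76.2 to 78.4). Among the 7879 peaks inside a domain, 64.1% (interval 63.0 to 65.2) had neither an OE-low nor an Rnf20 peak. Rnf20 differed between the settings, being met by 13.5% of peaks outside domains (interval 12.6 to 14.4) against 29.0% inside (interval 28.0 to 30.0). OE-low was met by 12.0% outside (interval 11.2 to 12.9) and 13.5% inside (interval 12.8 to 14.3). Length differed too, with medians of 443 bp in alone peaks and 703 bp in peaks inside a domain without OE-low or Rnf20. Its part in these shares was not tested.

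The alone peaks were short. Their median length was 443 bp (interval 435 to 453, range 145 to 3237), against 718 bp (interval 707 to 729) in all other OE-high peaks. A longer peak can meet another feature more easily, so length bears on the rule itself, though how far was not tested. With only the summit of each peak counted for overlap, the median length of the peaks that stood alone was 493 bp. Ranked by length, 66.1% of the shortest 10% of OE-high peaks (145 to 289 bp) stood alone, against 9.14% of the longest 10% (1262 bp and over). The first score of the authors, which ranks peaks and whose formula is not stated, separated them less. Its median was 10.2 in alone peaks (interval 10.1 to 10.3) and 10.96 in all others (interval 10.9 to 11.05). With the list cut into 10 classes of equal size by first score, alone peaks made up 38.3% of the lowest class, 37.0% of class 6 and 12.8% of the highest. The share was thus near level over the lower 6 classes and lower in the upper ones. The second score, a whole number per peak, had a median of 29 (interval 29 to 30) in alone peaks, against 34 (interval 34 to 34) in the others. Its lowest value in the list was 24, and 452 alone peaks stood at exactly that value.

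**Figure D1:**
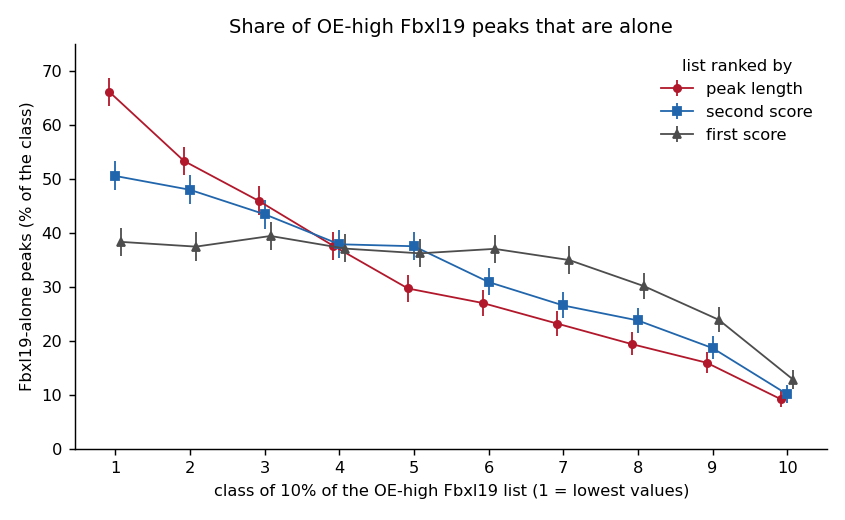
Share of OE-high Fbxl19 peaks that are alone (vertical axis, percent) in 10 classes of equal size of the list ranked by peak length, second score or first score (horizontal axis), with exact 95% intervals as bars. By length the share is 66.1% in the lowest class and 9.14% in the highest, and by first score it stays between 36.2% and 39.4% over the lower 6 classes and is 12.8% in the highest.

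Length and score were also set against each other, each cut into 4 classes of equal size. Among the shortest peaks (up to 407 bp), 59.2% of those in the lowest class of first scores stood alone (711 of 1201, interval 56.4 to 62.0) and 46.1% of those in the highest (194 of 421, interval 41.2 to 51.0). Among the longest peaks (923 bp and over) these shares were 15.7% (92 of 585, interval 12.9 to 18.9) and 10.8% (142 of 1314, interval 9.18 to 12.6). The share differed more between lengths than between scores. Summits lay near the middle of the alone peaks, at a median of 49.7% of the peak from its left end. Alone peaks with higher first scores were longer too, with a median of 605 bp (interval 518 to 680) in the 175 within the highest 10% of the list, against 360.5 bp (interval 335 to 387) in the 524 within the lowest 10%. The share within 10 kb of a domain was similar in the 2, at 21.7% of those 175 (interval 15.8 to 28.6) and 22.5% of those 524 (interval 19.0 to 26.3). Over the 10 classes of first score it ran from 20.3% in class 7 to 27.0% in class 4. The median distance to a domain was 40.1 kb for those 175 and 30.9 kb for those 524.

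The 2 scores of the OE-high list were tied to each other, and the relation between them was used to describe the alone peaks. The second score plus 1, divided by the first score, fell on evenly spaced values: 6 values from 2.515 to 4.409, 0.379 apart on average, held 50.0% of OE-high peaks within 0.002. A summit pileup over a local control level, with 1 added to each, would give such a quotient, but the files do not state what the scores are. The quotient minus 1 is called the score quotient here, and it holds nothing that the 2 scores do not. Its median was 1.92 (interval 1.92 to 1.98) in alone peaks and 2.20 (interval 2.20 to 2.27) in all other OE-high peaks.

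The class most like the alone peaks were the 5051 OE-high peaks that also lacked OE-low and Rnf20 but lay in an H2Bub1 domain. Their median first score was nearly the same, 10.2 (10.1 to 10.3) in alone peaks and 10.2 (10.1 to 10.4) in those in a domain, and alone peaks had the lower median on 10 of 19 autosomes. The second score was lower in alone peaks, with a median of 29 against 32 (interval 31 to 32), on 18 of 19 autosomes. The length was lower on all 19, with medians of 443 bp and 703 bp (interval 690 to 716) and a difference, alone minus in domain, between -364 and -160 bp by chromosome. The score quotient, which at a similar first score restates the second, was lower on all 19 autosomes, with medians of 1.92 in alone peaks and 2.27 (interval 2.25 to 2.27) in those in a domain. Over the 16 combinations of the 4 length and 4 first-score classes, the second score was lower in alone peaks in 12, equal in 3 and higher in 1. Without chromosomes 1 and 11 the median lengths were 451 bp in alone peaks and 703 bp in those in a domain, and the quotients 1.89 and 2.09.

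Outside domains, alone peaks were set beside the peaks that met exactly 1 narrow list. The alone peaks had the medians given above, 10.2 for the first score, 443 bp for the length and 1.92 for the score quotient. The 535 peaks with OE-low only had a higher median first score, 12.7 (interval 12.4 to 13.1), and a shorter median length, 411 bp (interval 391 to 430). Their score quotient was 1.70 (interval 1.62 to 1.87). The 620 peaks with Rnf20 only were nearer to alone peaks in first score, at 11.1 (interval 10.7 to 11.4), and longer, at 628 bp (interval 594 to 664). Their quotient was 2.03 (interval 1.89 to 2.20). The 160 peaks outside domains that met both lists had a median first score of 15.6 (interval 14.7 to 16.7). Alone peaks thus had the lowest median first score of the 4 classes outside domains, and lay between the OE-low and Rnf20 classes in length.

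**Figure D2:**
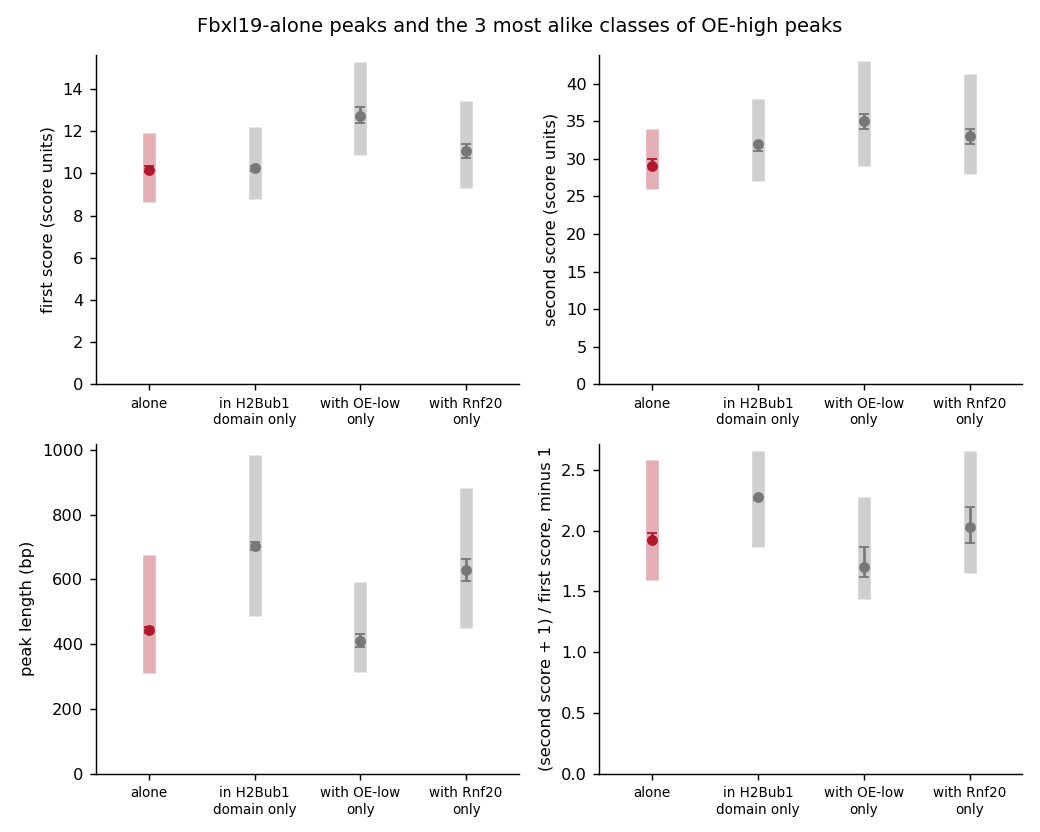
Medians (points) with exact 95% intervals (thin bars) and the middle 50% of peaks (wide bars) for the first score, second score, length and score quotient of alone peaks, of peaks in an H2Bub1 domain without OE-low or Rnf20, and of peaks outside domains that met only OE-low or only Rnf20. Alone peaks and peaks in a domain share a median first score of 10.2, while their median lengths are 443 bp and 703 bp.

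The 5 alone peaks with the highest first score were spread over 5 chromosomes. The first, at chr2:181047673-181049224, had a first score of 68.5 and a second score of 223, more than any other alone peak. It was 1552 bp long and lay 5.18 kb from an OE-high H2Bub1 domain, 7.69 kb from an OE-low peak and 20.4 kb from an Rnf20 peak. Next came chr16:96166973-96167364, with a first score of 33.0 over 392 bp, 33.8 kb from the nearest domain and 44.8 kb from Rnf20. At chr12:56701123-56701695 the first score was 32.8, and the nearest domain, of the knockdown list, was 107 kb away. The peak at chr1:185857221-185858498, with a first score of 32.0, lay 102 bp from a differentiated H2Bub1 domain and 4869 bp from an Rnf20 peak. The fifth, at chr5:38430024-38430762, had a first score of 31.9 and lay 164 kb from any domain, 181 kb from Rnf20 and 1624 kb from OE-low. A high score was thus found both beside domains and far from them.

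The longest alone peaks were not those with the highest scores. At chr10:119911372-119914608 a peak of 3237 bp had a first score of 11.4 and a second score of 26, and lay 243 kb from the nearest domain. At chr18:39648435-39651535 a peak of 3101 bp had the lowest second score of the list, 24, and lay 712 kb from any domain. The third, of 2353 bp at chr14:62299672-62302024, had a first score of 12.5 and a second score of 40 and lay 29.9 kb from an OE-high H2Bub1 domain. The 3 peaks just inside the rule lay 4, 5 and 6 bp from a domain, at chr1:138853938-138854596 (first score 15.2), chr3:130813016-130813595 (8.49) and chr15:58914605-58915096 (9.33). Just outside it, the 3 excluded peaks with the least overlap, 6, 7 and 11 bp, had first scores of 10.96, 9.07 and 9.22. They lay at chr4:120527307-120527805, chr8:74249393-74249675 and chr7:107650589-107651141, and the first 2 met an OE-high H2Bub1 domain and the last an ES domain.

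Most alone peaks did not border an H2Bub1 domain. Distance here runs between the nearest ends. Of the alone peaks, 197 (4.40%, interval 3.82 to 5.04) lay within 1 kb of a domain of any list, 1028 (23.0%, interval 21.7 to 24.2) within 10 kb and 3481 (77.8%, interval 76.5 to 79.0) within 100 kb. The median distance was 33.1 kb. Peaks outside domains with OE-low only or with Rnf20 only had similar medians, 31.3 and 30.2 kb, and lay within 10 kb in 23.7% (interval 20.2 to 27.6) and 27.6% of cases (interval 24.1 to 31.3). By list, the median distance from alone peaks was 270 kb to the knockdown list, 36.5 kb to OE-high, 59.8 kb to differentiated cells, 408 kb to the differentiated knockdown and 151 kb to ES cells. These lists cover 41.9, 246, 156, 15.6 and 57.4 Mb, so the distance was shorter the more a list covered. The OE-high H2Bub1 list held the nearest domain of 3106 alone peaks, and 166 lay within 1 kb of one of its domains.

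The narrow lists were also set against the alone peaks by distance. An Rnf20 peak lay within 10 kb of 13.2% of alone peaks (589, interval 12.2 to 14.2), against 17.9% (interval 16.9 to 19.0) of the peaks in a domain without OE-low or Rnf20. An OE-low peak lay within 10 kb of 7.62% of alone peaks (341, interval 6.86 to 8.44), against 8.41% (interval 7.66 to 9.21) of those in a domain. The median distances from alone peaks were 79.4 kb to Rnf20 and 157 kb to OE-low. Peaks outside domains with OE-low only were like alone peaks in distance to Rnf20. An Rnf20 peak lay within 10 kb of 13.3% of them (interval 10.5 to 16.4), at a median of 77.3 kb. The nearness of alone peaks to Rnf20 was thus not particular to them. Between alone peaks and those in a domain, the intervals for Rnf20 do not overlap and those for OE-low do. These intervals cover counting error only and are no test. The Rnf20 list came from a single library.

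Alone peaks far from domains differed a little from those near them. The median first score was 9.995 within 1 kb of a domain (interval 9.59 to 10.4, 197 peaks), 10.1 from 10 to 50 kb (interval 9.96 to 10.2, 1727 peaks), 10.7 from 100 to 1000 kb (interval 10.4 to 10.8, 946 peaks) and 11.7 beyond 1000 kb (interval 10.7 to 11.9, 36 peaks). The second score ran the other way, with medians of 30, 30, 29 and 26.5 in these bins, and the score quotient was 1.98, 2.03, 1.89 and 1.53. The most distant peaks thus had the higher first and the lower second scores. Without chromosomes 1 and 11 the first scores of these bins were 9.995, 10.2, 10.8 and 11.8. The 3 farthest were chr16:81200678-81201231 at 2.62 Mb from any domain with a first score of 12.3, chr5:17865816-17866506 at 2.44 Mb with 17.8 and chr16:70314082-70314977 at 2.35 Mb with 13.1. Each of the 3 had an Rnf20 peak nearer than a domain, at 130, 328 and 58.4 kb.

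**Figure D3:**
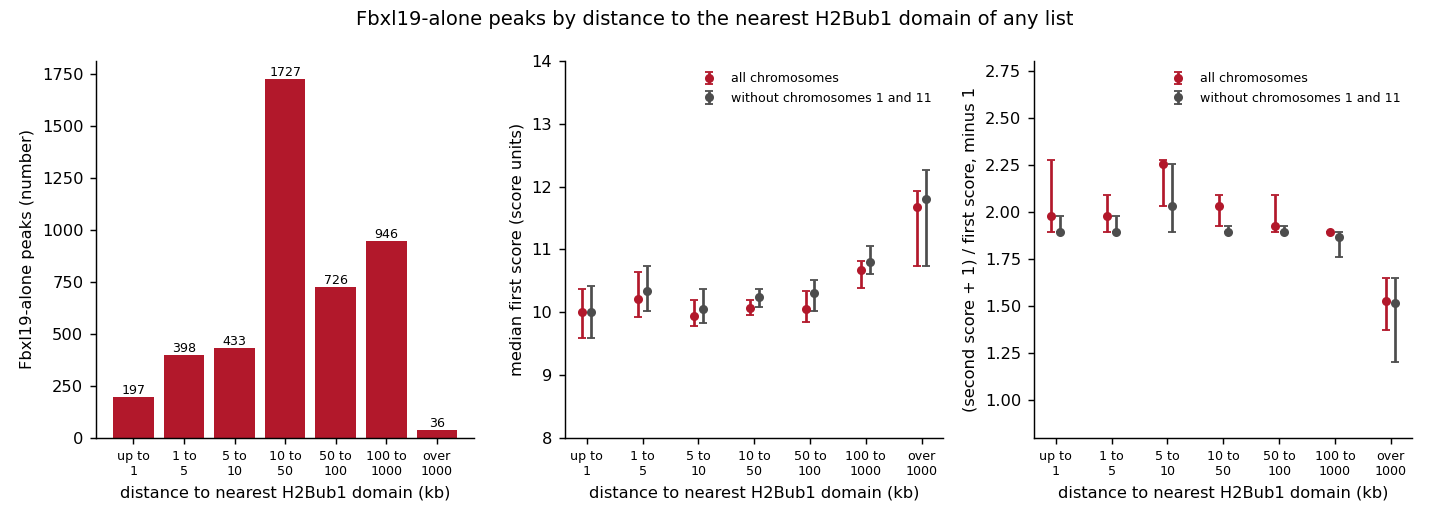
Number of alone peaks (left), median first score (middle) and score quotient (right) by distance to the nearest H2Bub1 domain of any list, in bins of unequal width, with exact 95% intervals. The 36 peaks beyond 1000 kb have a median first score of 11.7 and a score quotient of 1.53, against 9.995 and 1.98 for the 197 within 1 kb.

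The domains of all 5 lists together covered 273 Mb and left 7402 domain-free stretches between them. Alone peaks occurred in 2485 of these (33.6%), with 1436 stretches holding 1 alone peak and 115 holding 5 or more. Their density was 9.97 per Mb in stretches up to 50 kb, 6.51 in those of 50 to 200 kb, 2.40 in those of 200 to 1000 kb and 0.462 in longer ones. Over all stretches it was 1.94 per Mb, against 18.5 per Mb inside domains for the peaks without OE-low or Rnf20. The other OE-high peaks of these stretches added 0.568 per Mb, and inside domains all OE-high peaks came to 28.9 per Mb. Within a stretch the alone peaks lay somewhat toward its ends. The outer 10% at each end, 20% of the length, held 29.5% of the 4451 alone peaks between domains (interval 28.1 to 30.8). The outer 25% at each end, 50% of the length, held 58.4% (interval 57.0 to 59.9). The share of OE-high peaks in a stretch that stood alone was 73.9%, 77.0%, 79.5% and 76.5% from the shortest to the longest stretches. Density thus differed by a large factor with the size of the stretch, while this share stayed within a few percentage points.

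Most alone peaks were also apart from other Fbxl19 peaks, as were most OE-high peaks of the other classes. The median distance to the nearest OE-high peak of any kind was 19.3 kb, against 15.9 kb for all other OE-high peaks. Another OE-high peak lay within 2 kb of 13.9% of alone peaks (620, interval 12.9 to 14.9) and of 18.0% (interval 17.0 to 19.1) of peaks in a domain without OE-low or Rnf20. Outside domains, this held for 14.6% (interval 11.7 to 17.9) of peaks with OE-low only and 18.1% (interval 15.1 to 21.3) of those with Rnf20 only. In 385 of the 620 alone peaks the nearest neighbour was itself alone, and in 235 it met another list. Of the 235, the alone peak had the lower first score in 155 (66.0%) and was shorter than its neighbour in 167 (71.1%), with median lengths of 474 and 759 bp. These neighbours belong to the other OE-high peaks, which were longer and higher in first score over the whole list (medians 718 bp and 10.96). The pairs are therefore no separate result. Joined within 2 kb, the alone peaks formed 4267 sites, of which 4081 (95.6%) were single peaks, 164 were pairs and 22 held 3. No site held more than 3.

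The densest group was on chromosome 1, where 11 alone peaks lay within 95.3 kb, from 174253370 to 174348650. Their first scores ran from 7.64 to 14.1 with a median of 10.1, and their lengths from 222 to 765 bp with a median of 313 bp. Between them lay a domain that was in all 5 H2Bub1 lists, at chr1:174306200-174316799 in the knockdown, chr1:174299000-174316999 in OE-high, chr1:174306600-174316999 in differentiated, chr1:174306200-174315999 in the differentiated knockdown and chr1:174306400-174313999 in ES cells. An OE-high Fbxl19 peak with a first score of 15.2, at chr1:174306042-174306958, lay at the left end of that domain in 4 of the lists and met an OE-low peak at chr1:174306369-174306683. A second OE-high peak, at chr1:174298933-174299420, met the OE-high domain at its left end. Of the 13 OE-high peaks in the window, 11 were therefore alone, 7 on the left and 4 on the right of the domain. The alone peaks lay 3.37 to 31.4 kb from the nearest domain of any list, and no Rnf20 peak lay in the window. That nearest domain was not always the one between them, since for the first alone peak it lay to the left of the group.

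**Figure D4:**
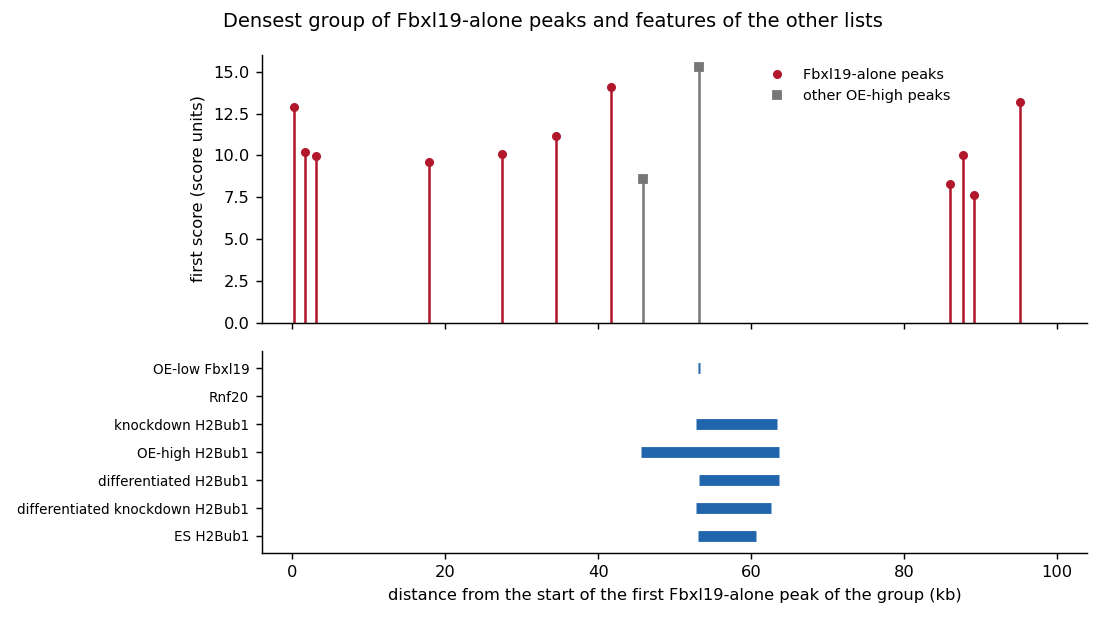
First score (vertical axis, score units) of the 13 OE-high Fbxl19 peaks in a 100 kb window on chromosome 1, by distance from the first of them (horizontal axis, kb), above the features of the other 7 lists drawn to scale. The 11 alone peaks lie on both sides of a domain listed in all 5 H2Bub1 conditions, and the 2 other peaks lie at its left ends. The domain nearest to the first alone peak lies to the left of the group and is not drawn.

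Alone peaks occurred on every autosome and on X, with 4441 on autosomes, 22 on X and 12 on unplaced contigs. As a share of OE-high peaks they ranged from 26.3% on chromosome 8 (192 of 729, interval 23.2 to 29.7) to 38.6% on chromosome 1 (507 of 1313, interval 36.0 to 41.3), around a median of 32.7% over 19 autosomes. The share outside all domains was 40.6% on chromosome 8 and 45.6% on chromosome 1. Rnf20 differed by more, being met by 32.1% of the OE-high peaks outside domains on chromosome 8 and by 2.50% on chromosome 1, around a median of 14.1%. Per OE-high peak there were 1.27 Rnf20 peaks on chromosome 8 and 0.272 on chromosome 1. Other chromosomes followed this order only in part. Chromosome 16 had 36.2% alone with Rnf20 at 8.70% of its peaks outside domains, and chromosome 4 had 30.0% alone with Rnf20 at 18.2%. Against the order, chromosome 6 had 36.5% alone with Rnf20 at 16.3%, and chromosome 14 had 31.4% alone with Rnf20 at 6.20%. These are examples, and the order was not tested over all autosomes. On X the share alone was 42.3% (22 of 52, interval 28.7 to 56.8), with Rnf20 at 26.5% of the peaks outside domains and 5.21 Rnf20 peaks per OE-high peak. By the rule a peak that met Rnf20 is not alone, so more overlap with Rnf20 outside domains lowers the share alone by construction. The Rnf20 list came from a single library, and its part in the shares by chromosome was not tested.

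The score quotient differed by chromosome, in alone peaks and in the whole OE-high list. Its median in alone peaks was 2.58 on chromosome 1, 2.14 on chromosome 11 and 1.20 on X. It lay between 1.88 and 1.98 on the other 17 autosomes. Over all OE-high peaks it was 2.65, 2.27 and 1.20, and between 1.89 and 2.14 on the other 17. In peaks in a domain without OE-low or Rnf20 it was 2.91, 2.27 and 1.515. The high value on chromosome 1 and the low one on X were thus not particular to alone peaks. Chromosome 1 had the lowest median first score of alone peaks, 9.47, and chromosome 18 the highest of the autosomes, 11.1, while X had 12.1. The second score of alone peaks was highest on chromosome 1, with a median of 32, against 26 on X. The chromosomes with a high quotient, 1 and 11, were those with the 2 lowest first scores, 9.47 and 9.68. The quotient has the first score as its divisor, so a high quotient beside a low first score is in part given by its formula.

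**Figure D5:**
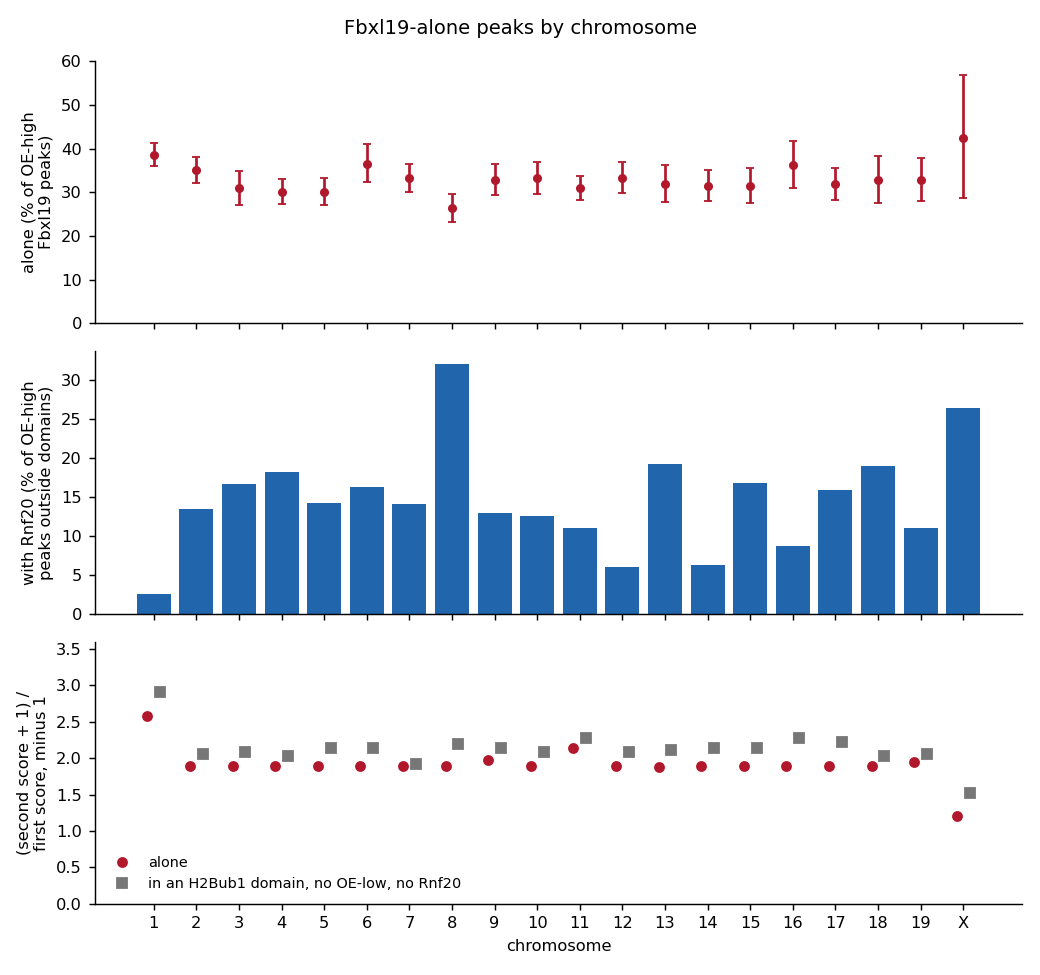
By chromosome, alone peaks in percent of the OE-high Fbxl19 list with exact 95% intervals (top), the share of OE-high peaks outside domains that met Rnf20 (middle), and the median score quotient of alone peaks and of peaks in a domain without OE-low or Rnf20 (bottom). Chromosome 8 has the lowest share alone of the autosomes (26.3%) and the highest with Rnf20 (32.1%), and chromosome 1 the reverse (38.6% and 2.50%). A peak that met Rnf20 is by the rule not alone, so the 2 shares are not independent.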

How the data were processed

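Genome build mm9 and the tools BWA 0.5.9-r16 and MACS are listed, without saying for which step, per the submitters' processing notes. The 5 H2Bub1 lists carry a track line ending in BCP, a caller of broad domains, per the file headers. The authors' deposited scores (2 per Fbxl19 peak, 1 per Rnf20 peak or domain) have no stated formula and were used only within their own list. A further deposited column of the authors in the H2Bub1 lists, domain length in bp, equals end minus start. Depth per sample is unknown. Fbxl19 coordinates were read as counted from 1 and the others as counted from 0.

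The members, classes and comparisons were chosen with earlier results of these data known. Named were the 5 highest-scoring, 3 longest, 3 farthest from domains and 3 nearest to another feature, the 3 least-overlapping excluded peaks and the densest group, leaving out unplaced contigs. Members with a first score under 4 and the Fbxl19 peaks beside the densest group were named after their values were seen. The score quotient was likewise devised after the values were seen, and rounded to 3 decimals. Overlap code was tested on simulated data and recovered 40% of 40% planted among 5000 peaks. Python 3.11.15, NumPy 2.4.6, pandas 2.3.3, SciPy 1.17.1 and matplotlib 3.10.9 were used.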

Additional observations from a re-analysis of the deposited data

How the results depend on the processing

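The count of 4475 alone peaks stayed within 1.5 times under 8 of 9 alternatives, 2 of which (only the summit counted, chromosomes 1 and 11 left out) were added after seeing the data. In these 8 it ran from 3607 without chromosomes 1 and 11 to 5858 without the OE-high H2Bub1 list. The direction was given by each setting. Leaving out a list or asking for more overlap can only add alone peaks, while a wider reach or fewer chromosomes can only remove them. Limited to the 50% of OE-high peaks with the highest first score, the count was 1901, also fewer by construction. The median first score, 10.2, was 10.4 when 50% of the peak had to be covered, 12.3 in the top 50% and 10.4 without the OE-low list. The median length, 443 bp, was 504 bp with 50% to be covered, 499 bp in the top 50%, 465 bp without Rnf20, 482 bp without the OE-high H2Bub1 list and 493 bp with only the summit counted. The share within 10 kb of a domain, 23.0%, was 19.3% when a feature within 1 kb also counted, 21.6% in the top 50% and 16.1% without the OE-high H2Bub1 list. With 50% to be covered it was 32.3% and with only the summit counted 33.8%, both of which admit peaks that touch a domain. The other values stayed within the interval of the main value. No paired analysis was possible because the lists combine replicates and hold no values per sample, and no replicate could be left out.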

Other observations

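A few alone peaks had a very low first score. The 7 with a first score under 4 had second scores from 31 to 106 and score quotients from 9.85 to 28.1, against a median of 1.92 over all alone peaks. The first score is the divisor of the quotient, and no second score in the list was below 24. A high quotient at so low a first score is thus given by the formula. On chromosome 11, 4 of these 7 peaks lay between 3045410 and 3086071. The first of these, chr11:3045410-3045705, had a second score of 106 and a first score of 3.67. Another 2 lay next to each other at chr9:123843212-123843436 and chr9:123843964-123844750, and 1 at chr2:181653346-181653584. A score quotient over 5 was found in 27 of the 4475 alone peaks and in 193 of the other 9194 OE-high peaks, so it was rarer among alone peaks. The largest quotient was 28.1 in alone peaks and 129.9 in the others. Of the 13 OE-high peaks on the unplaced contig of chromosome 1, 11 were alone, and no H2Bub1 list held a domain on that contig. The 12 alone peaks on unplaced contigs had a median first score of 8.04 and a median score quotient of 3.84.

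The domain-free stretch with the most alone peaks, picked after its values were seen, ran over 320 kb at chr1:154751000-155071199. It held 13 alone peaks with first scores from 7.74 to 15.3 and a median of 8.77.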
